A study of Caenorhabditis elegans with 8 samples.

Results

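The genes described here are a set of Caenorhabditis elegans genes that act in the oocyte, the eggshell and the maternal RNA supply of the early embryo. They were selected from a list of 35 gene names by matching each name to a feature annotated with that symbol alone, and 32 of the 35 were found among 25478 genes with such a feature. The genes puf-6, puf-7 and mex-1 had no such feature and are not analysed here. Each of the 32 was measured by 1 feature, and all 32 had a mean log2 level above 5.

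Expression was measured in whole animals with 8 Affymetrix C. elegans Gene 1.0 ST arrays, 1 for each combination of 4 strains and 2 RNAi labels. All animals grew at 20 °C on bacteria carrying a control or an ash-2 RNAi construct for 3 days, starting at the egg and ending as young adults. N2 is the wild type and is labelled for RNAi throughout the body. By the same labels the RNAi acts in 1 tissue of each other strain: the intestine (VP303), the muscle (NR350) or the neurons (TU3401). As background from general knowledge of these strains and not from the labels, VP303 and NR350 are mutants of rde-1, the Argonaute needed for RNAi, in which rde-1 is driven by the intestinal nhx-2 promoter or the muscle hlh-1 promoter. TU3401 is a mutant of the double-stranded RNA channel gene sid-1 with sid-1 driven in neurons by the unc-119 promoter. The label names where RNAi can act, while the RNA came from whole bodies, so that germ line RNA is part of every sample. ASH-2 belongs to the COMPASS family of histone H3 methyltransferase complexes. By its title the series concerns the passing of epigenetic information between the intestine and the germ line, and the question here is how the oocyte RNA pool stands in each strain and under each label.

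The oocyte grows while its own nucleus is nearly silent in the late stages, so the egg depends on RNA and protein made earlier in the germ line. Proteins that bind the 3′ ends of these RNAs (the OMA, PUF, MEX and POS families and LIN-41) hold them silent until they are needed. As the oocyte passes through meiosis, the kinase MBK-2 becomes active and marks maternal proteins such as OMA-1 and MEI-1 for removal. An eggshell of vitelline, chitin and proteoglycan layers is built around the fertilized egg, and the growing oocyte is loaded with yolk through the receptor RME-2. With whole-animal RNA, fewer oocytes and less RNA per oocyte cannot be told apart.

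Array medians lay between 21.1 and 21.6 on the linear intensity scale, and the lowest values of the table lie near 18, and all members had a mean level above that of an intensity of 32. The signal of ash-2 itself ran against a knockdown: its log2 level, control array first, was 7.23 and 7.52 (N2), 7.21 and 7.87 (VP303), 7.19 and 8.07 (NR350), and 6.94 and 7.63 (TU3401). All 4 arrays labelled ash-2 lay above all 4 control arrays, and the difference averaged 0.63 ± 0.25 (SD over 4 strains; limma adjusted p = 0.301). The treated arrays are therefore called the arrays labelled ash-2, and each direction of response rests on that label. No label names separate cultures, and there is 1 array for each strain and label. The p-values therefore rest on how the label difference varies from strain to strain in these 8 arrays. In a strain comparison, the control array and the array labelled ash-2 of a strain serve as its repeats. The number of arrays limits the precision. Levels are log2 of the deposited intensity. They are compared for 1 gene at a time and not between genes, since probes differ in brightness.

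**Figure D1:**
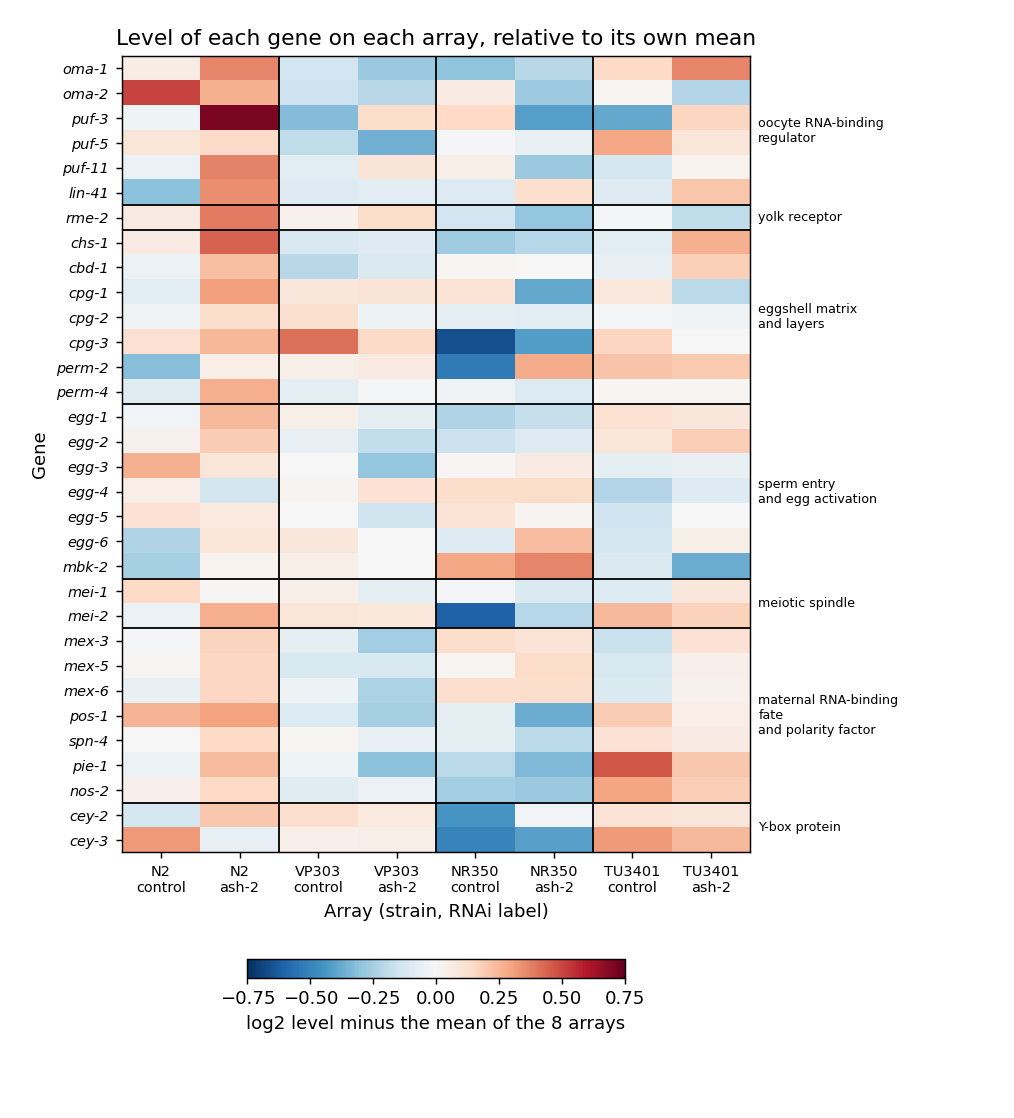
Level of each of the 32 genes on each of the 8 arrays, as the log2 level minus that gene's mean over the arrays (red higher, blue lower), with genes in rows grouped by role and arrays in columns. The N2 array labelled ash-2 is mostly red, and the 2 NR350 columns hold the deepest blue, at cpg-3, mei-2, perm-2 and cey-3 in the control array.

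The members' variation was divided between strain and RNAi label. For each gene, the squared deviations over the 8 arrays were divided into a share for strain, a share for the label and a remainder. With 1 array for each strain and label, the remainder holds strain-dependent label differences and variation between arrays, which cannot be told apart. The median share of the members was 66.9% for strain, 5.48% for the label and 23.6% for the remainder, against medians of 70.7%, 6.36% and 17.2% over the 8648 features with a mean log2 above 5. Strain and the remainder each have 3 degrees of freedom and the label has 1, or 42.9%, 42.9% and 14.3% of the total, so a larger share for strain than for the label is in part fixed by the design. Strain held the largest share in 23 of the 32 genes, the label in 2, lin-41 and egg-6, and the remainder in 7. The range over the 8 arrays was smallest for cpg-2 (0.22) and largest for puf-3 (1.12) on the log2 scale.

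The first comparison asked whether the oocyte genes shift with the ash-2 label in the same way in all 4 strains. None of the 32 passed the test, a limma fit of log2 levels with strain as a block and Benjamini-Hochberg adjustment over all 27792 features at 0.05. Over all features 0% passed in either direction. The median difference of the members was 0.03, beside 0.03 over features with a mean log2 above 5; it was -0.0029 without the N2 arrays and 0.0763 without the VP303 arrays. At an unadjusted p under 0.05, lin-41, perm-2 and cbd-1 were higher and oma-2 was lower, while 8.3% of the features above 5 were higher and 5.87% lower at that p. The signs of the 32 means were divided into 20 positive and 12 negative. A positive sign in all 4 strains was found in 2 members, lin-41 and chs-1, and in 13.7% of features above 5; a negative sign in all 4 was found in 1, oma-2, and in 7.2% of those features.

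LIN-41, a TRIM-NHL protein that keeps oocytes from entering M phase too early, had the highest mean difference of the set. Its log2 level was 8.91 in the control array and 9.57 in the array labelled ash-2 of N2, 9.12 and 9.14 in VP303 and 9.12 and 9.34 in NR350, while TU3401 had 9.12 and 9.42. The N2 control array was the lowest. The VP303 array labelled ash-2 (9.14) stood close to the control arrays of VP303, NR350 and TU3401 (9.12 in each). The mean difference was 0.30 ± 0.27 (SD, n = 4; limma adjusted p = 0.556). The chitin synthase gene chs-1, which makes the middle layer of the eggshell, was also higher under the ash-2 label in each strain, with levels of 8.04 and 8.42 in N2, 7.86 and 7.89 in VP303 and 7.71 and 7.77 in NR350, while TU3401 had 7.90 and 8.25. Its differences were near 0 in VP303 and NR350 and were 0.38 in N2 and 0.34 in TU3401, and the mean of 0.20 ± 0.19 (SD, n = 4) had a limma adjusted p of 0.703.

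The paralogues oma-1 and oma-2 encode zinc finger proteins that act together in oocyte maturation, but their differences had opposite signs in 3 strains. The level of oma-2 was 11.58 and 11.34 in N2 (control, then labelled ash-2), 10.92 and 10.87 in VP303 and 11.13 and 10.80 in NR350, while TU3401 had 11.09 and 10.85. The level of oma-1 in the same order was 9.47 and 9.78, 9.27 and 9.13, 9.11 and 9.21, and 9.57 and 9.78. The sign of the difference was the same for both genes in 1 strain, VP303. The mean difference was -0.22 ± 0.12 for oma-2 and 0.12 ± 0.19 for oma-1 (SD, n = 4), with limma adjusted p of 0.504 and 0.794.

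Another pair of paralogues had differences of the same sign in every strain. PUF-3 and PUF-11 are close relatives in the PUF family of RNA-binding repressors and act in oocyte formation. The level of puf-3 was 8.58 and 9.32 in N2, 8.29 and 8.75 in VP303 and 8.77 and 8.20 in NR350, while TU3401 had 8.23 and 8.78. The level of puf-11 was 6.92 and 7.34, 6.88 and 7.06, 7.01 and 6.68, and 6.83 and 6.99. Both genes were higher under the ash-2 label in N2, VP303 and TU3401 and lower in NR350, with differences of 0.73, 0.46, -0.57 and 0.55 for puf-3 and 0.42, 0.18, -0.32 and 0.15 for puf-11. Signal of one gene on the probes of a close relative was not tested, and the values of this pair, and of oma-1 and oma-2, egg-1 and egg-2, egg-4 and egg-5, mex-5 and mex-6, and cey-2 and cey-3, are uncertain to that extent. The mean of puf-3 was 0.29 ± 0.58 (SD, n = 4; limma adjusted p = 0.73), the widest spread among the members. The third PUF gene of the set, puf-5, had a mean of -0.09 ± 0.12.

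**Figure D2:**
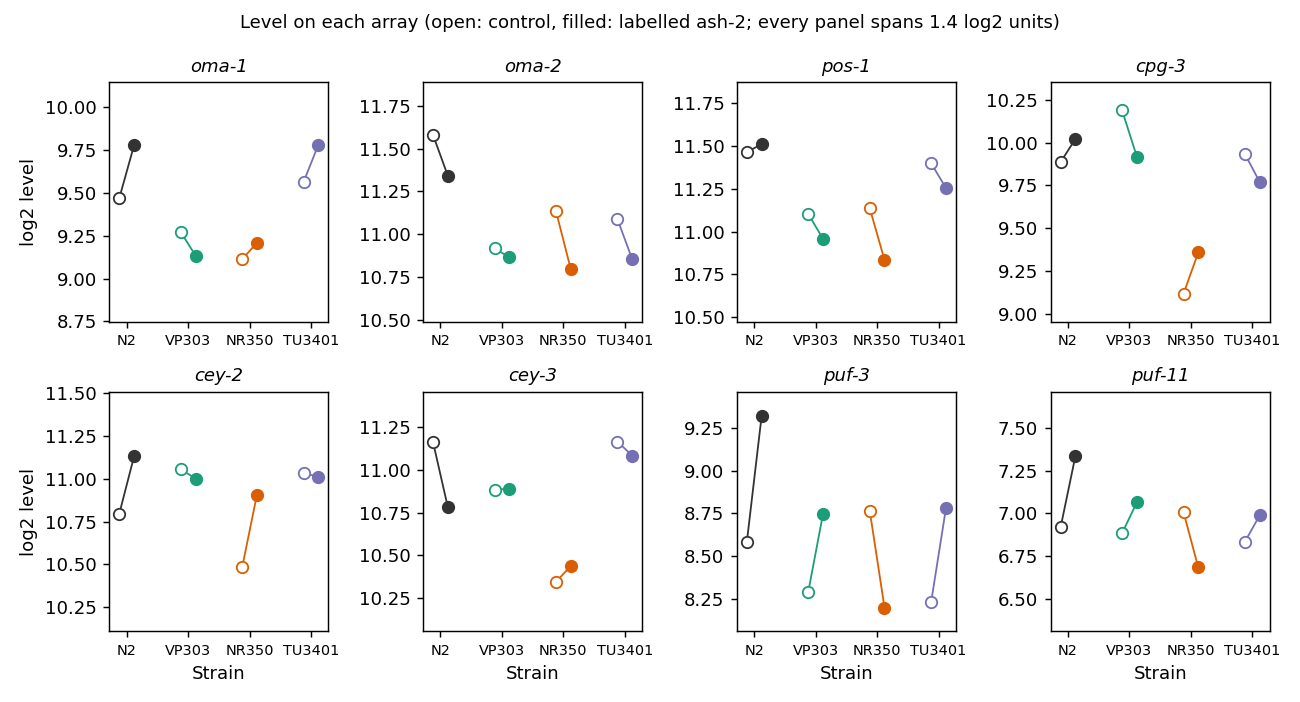
Log2 level of 8 genes on each array, with strains on the x axis, open circles for the control array, filled circles for the array labelled ash-2 and a line joining the pair; every panel spans the same height. Both NR350 arrays of cpg-3 and cey-3 lie below the other 6 arrays, both N2 arrays of oma-2 and pos-1 lie above the other 6, and the lines of puf-3 and puf-11 slope down in NR350 only.

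Among the eggshell genes, perm-2 had the largest single difference of the set. PERM-2 and PERM-4 are proteins of the layer around the embryo that help seal it, and RefSeq (assembly WBcel235) places their genes next to each other. The level of perm-2 was 10.23 and 10.61 in N2, 10.60 and 10.62 in VP303 and 10.02 and 10.83 in NR350, while TU3401 had 10.77 and 10.75. The NR350 control array held the lowest of the 8 levels and the NR350 array labelled ash-2 the highest, a difference of 0.81. The mean difference was 0.30 ± 0.39 (SD, n = 4, limma adjusted p = 0.601). The neighbour perm-4 differed by 0.36 in N2 and by -0.07 in NR350, and the differences of these genes had the same sign in 2 strains. The gene cbd-1, for a chitin-binding protein of the vitelline layer, had a mean of 0.15 ± 0.13. The proteoglycan genes cpg-1, cpg-2 and cpg-3 had means of -0.09 ± 0.38, -0.01 ± 0.13 and -0.01 ± 0.24.

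No gene of sperm entry, egg activation or the meiotic spindle passed the test of the label. The LDL receptor repeat proteins EGG-1 and EGG-2 are needed on the oocyte for sperm to enter, and their genes had means of 0.04 ± 0.16 and 0.05 ± 0.12. EGG-3 and the pseudophosphatases EGG-4 and EGG-5 hold the kinase MBK-2 at the cortex until activation; the means were -0.10 ± 0.17 for egg-3, 0.01 ± 0.14 for egg-4, -0.03 ± 0.13 for egg-5 and 0.01 ± 0.22 for mbk-2. The leucine-rich repeat gene egg-6 stood at 0.18 ± 0.19. The katanin subunits of the meiotic spindle had means of -0.04 ± 0.16 for mei-1 and 0.15 ± 0.23 for mei-2. None of these 9 had a limma adjusted p under 0.7.

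The maternal factors that set polarity and fate in the embryo did not pass either. Their 7 means ran from -0.14 ± 0.14 for pos-1, a zinc finger regulator of maternal RNAs, to 0.11 ± 0.07 for mex-5, which with mex-6 sets up the anterior cytoplasm. The differences of mex-5 were 0.15 (N2), 0.12 (NR350) and 0.16 (TU3401), with VP303 next to 0, and its SD was the smallest of the 32 genes. The germ line Nanos gene nos-2 had the mean nearest 0 of this group (0.01 ± 0.10). It was also the dimmest of the 32 genes, with a mean log2 level of 5.38, and the effect of this low level was not tested. The gene pie-1, whose protein silences transcription in the germ line of the embryo, had the widest spread (-0.10 ± 0.26). The germ line Y-box genes cey-2 and cey-3, whose proteins package stored RNA, had means of 0.17 ± 0.24 and -0.09 ± 0.20.

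Within single strains the set leaned one way in N2. With 1 array against 1 array there is no test. In N2, 26 of 32 were higher in the array labelled ash-2, beside 56.2% of features with a mean log2 above 5, and the median difference was 0.24 beside 0.04. In VP303, 12 of 32 were higher, beside 59.2% of those features, with a median of -0.05. In NR350 and TU3401, 16 of 32 were higher in each, beside 48.4% and 54.9%, with medians of -0.004 and -0.006. By role, the N2 median was 0.36 for the 6 oocyte RNA-binding regulators and for the 7 eggshell genes, 0.16 for the 7 genes of sperm entry and activation, 0.15 for the fate and polarity factors and -0.02 for the Y-box genes. A 2-fold difference was found in 0 of the 32 genes in any strain, in either direction. Among features above 5, 2-fold higher levels were found in 0.139% (N2), 0.139% (VP303), 0.127% (NR350) and 0.173% (TU3401), and 2-fold lower levels in 0.983%, 1.03%, 0.335% and 0.243%, respectively. At 1.5-fold, puf-3 and lin-41 were above their controls in N2, beside 1.46% of those features, and perm-2 in NR350, beside 0.948%.

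**Figure D3:**
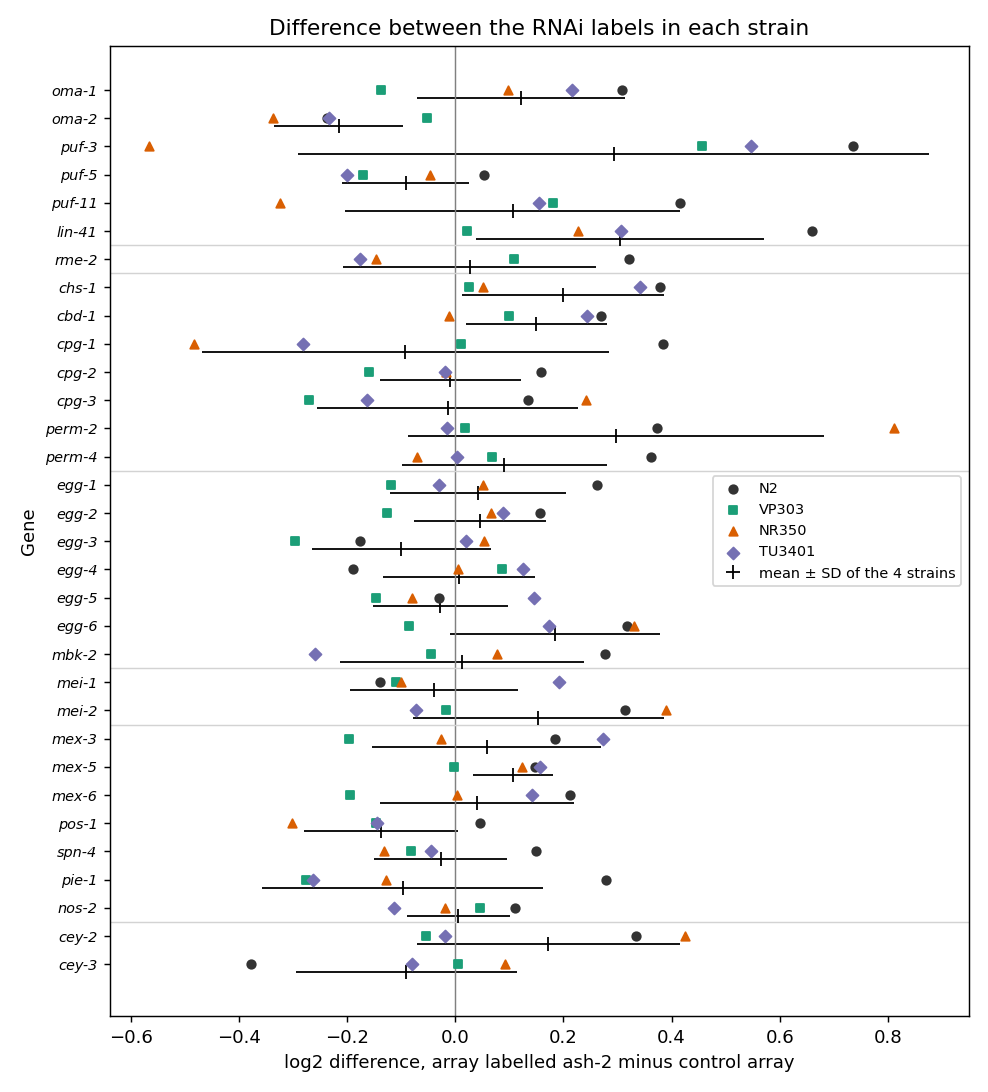
Log2 difference between the array labelled ash-2 and the control array for each of the 32 genes (rows, grouped by role), with 1 point per strain and a black bar for the mean ± SD of the 4 strains. The N2 points lie right of 0 for 26 genes, and puf-3 and perm-2 have the largest SD.

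Some other lists leaned the same way in N2. The median difference in N2 was 0.27 for 10 germ line regulators upstream of the oocyte (such as gld-1 and fbf-1), 0.32 for 7 partners in maternal RNA granules (such as cgh-1 and car-1) and 0.40 for 5 vitellogenins, the yolk proteins taken up by RME-2. It was 0.17 for 16 other polarity and fate genes, 0.05 for 13 genes of oocyte maturation and -0.04 for 14 other genes of the eggshell and its permeability barrier. It was also 0.56 for 8 muscle markers and 0.19 for 9 intestine markers. The other marker lists had N2 medians nearer 0. These were 0.11 for 11 mitotic and meiotic germ cell markers, 0.08 for 8 neuron markers and 0.02 for 5 adult cuticle markers. They were 0.02 for 9 moult genes, 0.01 for 10 sperm genes, -0.02 for 12 early embryo genes and -0.04 for 6 sheath and spermatheca genes. In all 4 strains together, 0 genes of these 15 lists passed the test of the label. The summed intensity of the muscle markers was 728 in the N2 control array and 1370 in the N2 array labelled ash-2, where the members summed to 48200 and 53460; 7 of the 8 muscle markers had a mean intensity above 32. The part of the muscle markers in the N2 difference was not tested.

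The second comparison set the response of N2 and VP303, whose labelled site of RNAi includes the intestine, against that of NR350 and TU3401. None of the 32 members passed the limma test of this difference, and 0% of all features did. At an unadjusted p under 0.05, 1 member was higher and 0 lower, beside 4.15% and 2.82% of features with a mean log2 above 5. The median of the members was 0.01, beside 0.02 over those features. The smallest p belonged to cpg-1, which encodes a chondroitin proteoglycan of the inner eggshell. Its level was 11.29 and 11.68 in N2 (control, then labelled ash-2), 11.46 and 11.47 in VP303 and 11.47 and 10.99 in NR350, while TU3401 had 11.45 and 11.17. The response was positive or near 0 in the first pair of strains (0.38 and 0.01) and negative in the second (-0.48 and -0.28), and the class difference was 0.58 (unadjusted p = 0.00216, limma adjusted p = 0.444). Without the VP303 arrays it was 0.77 with an adjusted p of 0.0357, a fit in which N2 stands alone for its class and is assumed to vary like the others.

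The yolk receptor gene rme-2 had the same signs as cpg-1. Its level was 9.19 and 9.51 in N2, 9.15 and 9.26 in VP303 and 8.98 and 8.84 in NR350, while TU3401 had 9.11 and 8.93. The class difference was 0.38 (limma adjusted p = 0.897). With nos-2, cpg-1 and rme-2 were the 3 members with differences above 0 in N2 and VP303 and below 0 in the other strains, beside 6.52% of features above 5; egg-3 was the 1 member with the opposite arrangement, beside 3.57%. The class difference of puf-3 was 0.61 (limma adjusted p = 0.898), the largest of the set, with the lowest of its 8 levels in the NR350 array labelled ash-2.

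The third comparison set the level of each strain against N2, over both labels. In NR350, 4 of the 32 members were lower by the limma test and 0 higher. Of all features 3.16% were lower and 4.02% higher there, and of those with a mean log2 above 5, 8.79% and 9.11%. In VP303, 1 member was lower and 0 higher, beside 0.184% and 0.457% of all features and 0.509% and 1.35% of those above 5. In TU3401, 0 members were called in limma in either direction, beside 0.23% lower and 0.374% higher among all features and 0.613% and 0.879% among those above 5. At an unadjusted p under 0.05, 1 member was lower in TU3401 and 0 higher, beside 17.4% and 6.54% of features above 5. The N2 arrays are shared by all 3 comparisons. An F test of any difference among the strains called 5 members, oma-2, puf-5, cpg-3, pos-1 and cey-3, where 8.42% of all features and 21.4% of those above 5 were called.

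**Figure D4:**
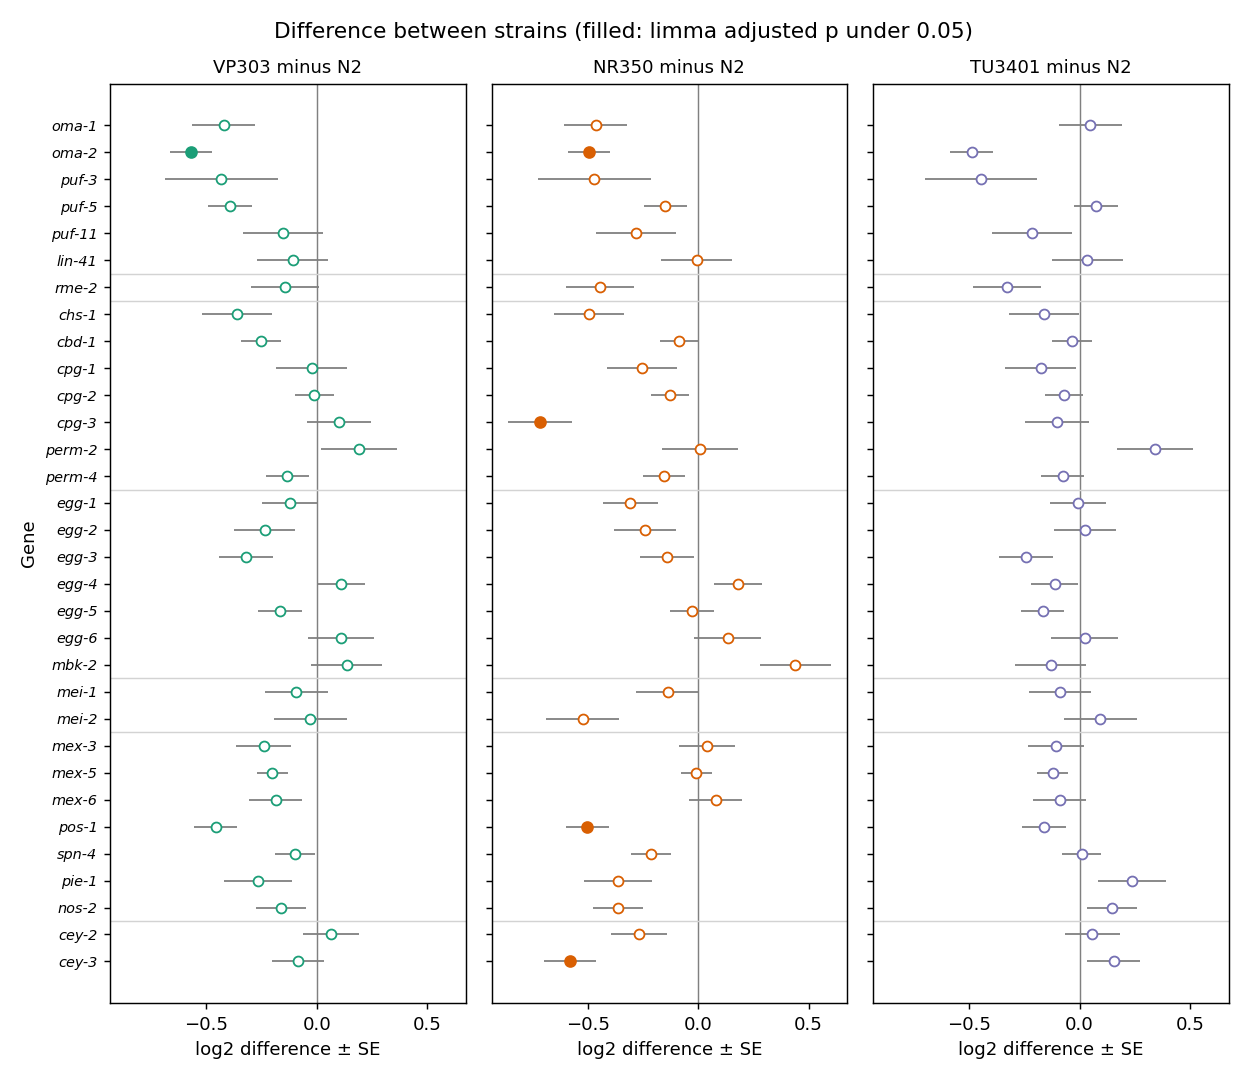
Log2 difference of each strain from N2 for each of the 32 genes (rows, grouped by role), as the limma estimate ± SE over both RNAi labels, with filled points at an adjusted p under 0.05. The filled points are oma-2 in VP303 and oma-2, cpg-3, pos-1 and cey-3 in NR350, all left of 0.

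The oocyte regulator oma-2 stood highest in N2 and was lower by the test in VP303 and NR350. Both N2 arrays (11.58 and 11.34) lay above the other 6, which ran from 10.80 to 11.13; oma-2, egg-3 and pos-1 were the 3 members with this order, beside 9.84% of features above 5. The difference from N2 was -0.57 (SE 0.10) in VP303, -0.49 (SE 0.10) in NR350 and -0.49 (SE 0.10) in TU3401, with limma adjusted p of 0.0237, 0.0105 and 0.0534. In VP303 the adjusted p was 0.052 under quantile normalization or with a robust prior and 0.106 without a variance trend. In TU3401 it was 0.045 with arrays centred on their medians. Its paralogue oma-1 had another order: both TU3401 arrays (9.57 and 9.78) lay with those of N2 (9.47 and 9.78), above all VP303 and NR350 arrays, which ran from 9.11 to 9.27. The oma-1 difference was -0.42 (SE 0.14, limma adjusted p = 0.324) in VP303 and -0.46 (SE 0.14, limma adjusted p = 0.0802) in NR350. The PUF gene puf-5, called by the F test (adjusted p = 0.043), stood at 11.00 and 11.05 in N2, 10.72 and 10.55 in VP303 and 10.90 and 10.86 in NR350, while TU3401 had 11.20 and 11.00. The puf-5 difference from N2 in VP303 was -0.39 (limma adjusted p = 0.145). Without a variance trend the F test called 0 members, and without the NR350 arrays it called 1.

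The maternal regulator pos-1 was lower in NR350 and stood low in VP303 as well. Its level was 11.47 and 11.51 in N2, 11.10 and 10.96 in VP303 and 11.14 and 10.83 in NR350, while TU3401 had 11.40 and 11.25. Both N2 arrays were above the other 6, with the TU3401 control array next. The difference from N2 was -0.50 (SE 0.10, limma adjusted p = 0.0105) in NR350 and -0.46 (SE 0.10, limma adjusted p = 0.0768) in VP303. Of the 7 fate and polarity genes, mex-3, mex-5 and mex-6 differed from N2 in NR350 by 0.04, -0.01 and 0.08, while spn-4, pie-1 and nos-2 differed by -0.21, -0.36 and -0.36, and none of these 6 passed.

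The eggshell proteoglycan gene cpg-3 had the largest strain difference of the set. Its level was 9.89 and 10.02 in N2, 10.19 and 9.92 in VP303 and 9.12 and 9.36 in NR350, while TU3401 had 9.93 and 9.77. The NR350 arrays were the only low ones and did not overlap with the other 6. The level was 1.64-fold lower in NR350 than in N2 (-0.72, SE 0.15, limma adjusted p = 0.0132). The other eggshell genes differed from N2 in NR350 by -0.49 (chs-1, limma adjusted p = 0.0964) to 0.01 (perm-2).

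The Y-box gene cey-3 was lower in the same strain. Its level was 11.16 and 10.78 in N2, 10.88 and 10.89 in VP303 and 10.35 and 10.44 in NR350, while TU3401 had 11.17 and 11.08. Again the NR350 arrays lay below the other 6, and the level was 1.49-fold lower than in N2 (-0.58, SE 0.12, limma adjusted p = 0.0134). The difference between control arrays was -0.81 and that between arrays labelled ash-2 was -0.34. For cey-2, with levels of 10.48 and 10.91 in NR350 and 10.80 and 11.13 in N2, the difference was -0.27 (SE 0.13, limma adjusted p = 0.283). Without a variance trend, pos-1, cpg-3 and cey-3 lost their call in NR350, with adjusted p of 0.0541, 0.0734 and 0.0825.

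In NR350, 8 members had both arrays below the other 6 (chs-1, cpg-2, cpg-3, egg-1, mei-2, spn-4, nos-2 and cey-3), or 25% of the set, beside 17.7% of features with a mean log2 above 5. Of these members only cpg-3 and cey-3 passed the limma test. Some gaps were small: for spn-4 the NR350 control array stood at 11.39 and the VP303 array labelled ash-2 at 11.397. Both arrays of NR350 lay below both of N2 for 17 members, beside 38.5% of features with a mean log2 above 5. For VP303 this was 12 members beside 27.7%, and for TU3401 5 members beside 33.3%. The members with both NR350 arrays above the other 6 were mbk-2 and egg-4, beside 15.1% of features above 5. The level of mbk-2 was 8.77 and 8.85 in NR350 and between 8.11 and 8.53 elsewhere, a difference from N2 of 0.44 (SE 0.16, limma adjusted p = 0.148). The median of the members was -0.23 in NR350, -0.15 in VP303 and -0.08 in TU3401, beside -0.08, -0.03 and -0.10 over features above 5.

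These medians were not the same under both labels. Between control arrays the members' median was -0.13 for NR350 minus N2, -0.04 for VP303 minus N2 and 0.03 for TU3401 minus N2. Over features above 5 the same medians were -0.06, -0.02 and -0.10. Between arrays labelled ash-2 the members' median was -0.31, -0.27 and -0.12 in the same order, beside -0.10, -0.04 and -0.08. The N2 array labelled ash-2, in which the members stood high, enters all 3 of the latter values.

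Of 65 other genes of the pathway, 5 were higher and 4 lower in NR350, where 9.11% of features above 5 were higher and 8.79% lower, and none passed in VP303 or TU3401. Among 10 germ line regulators the Notch receptor gene glp-1 was lower (-0.77, SE 0.20, limma adjusted p = 0.0397) and none was higher. Among 13 genes of oocyte maturation, the kinase gene air-2 (-0.71) and cks-1, a partner of the cell cycle kinase (-0.68), were lower, while gsa-1, a G protein subunit that acts in the gonad sheath (0.66), and the homeobox gene ceh-18 of the sheath (0.60) were higher, all in limma at adjusted p between 0.0086 and 0.0444. Among 14 other genes of the eggshell and permeability barrier, sqv-7, a nucleotide sugar transporter for chondroitin (-0.68), was lower. The fatty acid synthesis genes fasn-1 (0.81) and pod-2 (0.70) and the cytochrome P450 reductase gene emb-8 (0.53) were higher. Of 7 RNA granule partners, 16 other polarity and fate genes and 5 vitellogenins, 0 passed in any strain comparison; their medians in NR350 were -0.10, -0.06 and -0.33.

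Some lists of markers of other cells were higher in NR350, where the members' median was lower. Of 9 intestine markers 7 were higher in NR350 than in N2 (median 0.77), of 8 muscle markers 6 were higher (median 0.74) and of 5 adult cuticle markers 4 were higher (median 0.68). Of all features 4.02% were higher there, and of those with a mean log2 above 5, 9.11%. None of these 3 lists had a lower member. The highest of their lists were the myosin gene unc-54 (1.52), the intestinal filament gene ifb-2 and the cuticle gene bli-2 (0.87). Of 9 moult genes 1 was higher, mlt-8 (0.80), and of 8 neuron markers 0 passed. In VP303 the cuticle collagen gene col-19 (0.64) and the moult gene noah-1 (0.87) were higher. The summed intensity was 3882 and 3820 for intestine markers and 2175 and 2724 for muscle markers in NR350, against 2157 and 2363, and 728 and 1370, in N2. For VP303 the intestine markers summed to 2429 and 2532 and for TU3401 to 2718 and 2669. The cuticle markers summed to 4698 and 4853 in NR350 and to 3013 and 3620 in N2. A mean intensity above 32 was found for 8 of the 9 intestine markers and for 2 of the 5 cuticle markers. These 2 were col-19, which was higher in NR350 (0.85), and col-7, which did not pass (0.19, limma adjusted p = 0.5). The other called cuticle genes, bli-1, bli-2 and col-62, had a mean intensity below 32. The part of these markers in the NR350 difference was not tested.

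Embryo and germ cell markers were measured as well. Of 12 genes switched on in the early embryo 3 were lower in NR350 (median -0.10), beside 3.16% of all features and 8.79% of those above 5. These were the T-box genes tbx-38 (-1.38, SE 0.15) and tbx-37 (-0.51, SE 0.09), close copies of each other, and the endoderm gene end-1. Their limma adjusted p were 0.000258, 0.00487 and 0.000531. Signal of one T-box gene on the probes of the other was not tested. The level of end-1 was 5.77 and 5.69 in N2 and 4.92 and 4.53 in NR350. The level of tbx-38 was 6.81 and 6.39 in N2, 5.74 and 5.77 in VP303 and 5.35 and 5.08 in NR350, while TU3401 had 6.24 and 5.78. It was lower in VP303 too (-0.84, limma adjusted p = 0.0281). Both N2 arrays of tbx-38 lay above the other 6, as for the members oma-2, egg-3 and pos-1 and for 9.84% of features above 5. The early embryo list summed to 418 and 388 in N2, 343 and 353 in VP303 and 300 and 294 in NR350, while TU3401 had 351 and 338. Of its 12 genes 3 had a mean intensity above 32, namely tbx-38, end-1 and elt-7. The called gene tbx-37 was below it. Of 11 markers of mitotic and meiotic germ cells 0 passed (median -0.14 in NR350). None of 10 measured sperm genes had a mean intensity above 32; 3 passed in NR350 with differences of 0.09 to 0.21. Of 6 sheath and spermatheca genes ipp-5 was higher (0.54) and lim-7 lower (-0.44). The part of embryos held in the animals was not tested.

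**Figure D5:**
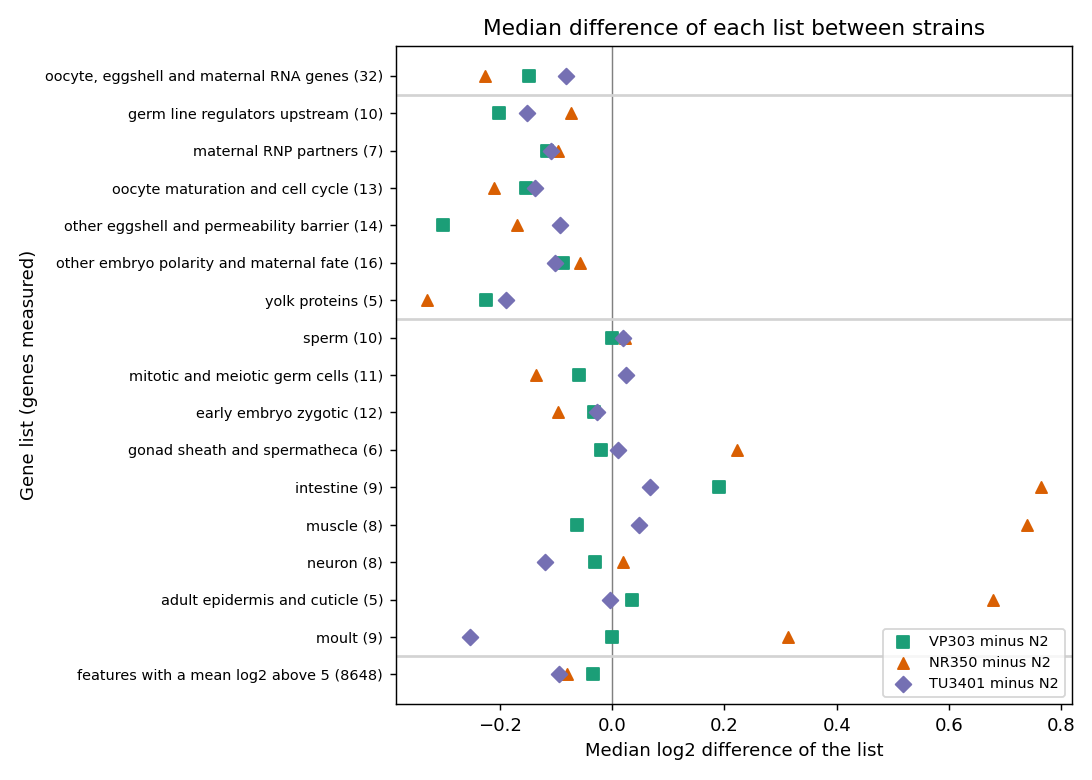
Median log2 difference from N2 for each gene list (rows, with the number of genes measured), with 1 point per strain; the upper block holds the 32 genes, the next the other genes of the pathway, then the marker lists of other cells, and the last row all features with a mean log2 above 5. In NR350 the members' median is -0.23, while the intestine, muscle and cuticle markers lie near 0.7. Of the 5 cuticle markers, 2 had a mean intensity above 32.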

How the data were processed

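The deposited values are linear intensities, 1 for each feature on each of the 8 arrays. Per the series' design text, arrays were processed with Affymetrix GeneChip Command Console 2.0 and GeneSpring GX 11.0.2. RMA (background subtraction, quantile scaling and probe summary) was applied, per the submitters' processing notes; for its version, any offset and the genome build, nothing is given in the sources used here. From these deposited values log2 was taken with nothing added. Features were named by the platform annotation, 25546 of 27792 having 1 symbol, and the identifiers of all 32 members were found in the RefSeq table (WBcel235). No sequences or coordinates are given.

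Limma 3.58.1 (R 4.3.3; lmFit, eBayes with a trend, two-sided) was fitted to all features: strain and label (3 residual degrees of freedom), and label within class (2). The arrays of a strain are paired by it; their deviations from the label means correlated at 0.684 (N2), 0.574 (VP303), 0.839 (NR350) and 0.525 (TU3401) over 8648 features. By rule, the genes named are all members, ash-2 and, from the other lists, genes that passed the test or had the highest or lowest difference; 4 names given as examples carry no value. Of 149 genes in 15 other lists, 143 were measured. Members and lists were chosen with earlier results of these data known.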

Additional observations from a re-analysis of the deposited data

Results flagged for a closer look

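The difference of mei-1, a katanin subunit gene, was 0.19 in TU3401 on the log2 scale, while the other strains lay at -0.14 (N2), -0.11 (VP303) and -0.10 (NR350); the gap to the nearest strain was large for 4 values by Dixon's test. Chance alone marks about 1 in 20 such groups, and 32 genes were looked at.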

How the results depend on the processing

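In NR350, 4 members were lower as reported, 7 when only features with a mean log2 above 5 were tested, 8 at an adjusted p under 0.10 and 1 (oma-2) without a variance trend. In VP303 the 1 lower member became 0 under quantile normalization, a robust prior or a prior without a trend, and 2 with features above 5 or at 0.10. In TU3401, 1 member (oma-2) was lower with arrays centred on medians, features above 5, features with exactly 1 symbol, or at 0.10. The strain F test called 9 members with features above 5, 8 at 0.10, 0 without a trend, and 1 to 4 when 1 strain was left out (1 without NR350). The label called 0 members under every alternative run. The class difference called 0, except cpg-1 without VP303 (0 to 1 over the strains left out), and the members' class median ran from -0.14 without N2 to 0.15 without VP303; their label median ran from -0.0029 without N2 to 0.0763 without VP303. At 1.5-fold in place of 2-fold, 2 members differed in N2 and 1 in NR350.

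Over all features, the label called 2 with exactly 1 symbol and 0 to 25 with 1 strain left out (25 without TU3401). The class difference called 56 with features above 5, 3 with exactly 1 symbol, 27 at 0.10 and 6 to 55 with 1 strain left out. VP303 gave 283 with features above 5, 283 at 0.10 and 42 without a trend; TU3401 gave 346 at 0.10 and 39 without a trend. The F test called 3617 at 0.10, 965 without a trend and 385 (without NR350) to 2107 (without VP303) with 1 strain left out.

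Uncalled differences near 0 changed sign. Under quantile normalization the label difference became 0.0057 for cpg-3, 0.025 for egg-5 and -0.020 for nos-2; VP303 minus N2 became 0.035 for cpg-1, 0.019 for cpg-2 and 0.002 for mei-2; NR350 minus N2 became 0.054 for lin-41 and 0.041 for mex-5; TU3401 minus N2 became 0.0092 for cpg-3 and 0.061 for egg-1. With arrays centred on medians, perm-2 in NR350 became -0.0033 and spn-4 in TU3401 -0.013. With 1 strain left out, the label difference ran from -0.071 to 0.094 for rme-2, -0.25 to 0.037 for cpg-1, -0.065 to 0.041 for cpg-2, -0.10 to 0.071 for cpg-3, -0.032 to 0.095 for egg-1, -0.033 to 0.072 for egg-4, -0.086 to 0.012 for egg-5, -0.076 to 0.10 for mbk-2, -0.014 to 0.14 for mex-3, -0.017 to 0.12 for mex-6, -0.086 to 0.008 for spn-4, -0.029 to 0.045 for nos-2 and -0.15 to 0.0056 for cey-3. The cause was not tested. The strain block was in every fit but 1: with no strain block and no replicate block the label called 0 members. Of 1570 single-gene alternatives, 1520 kept direction and side of the threshold. Many of these could not change direction, since a change of prior, feature set or threshold left each member's difference as it was. Leaving out a strain outside the comparison did the same for the strain differences. Most of the results were also uncalled from the start, so this count is no measure of robustness. Averaging a gene's features changed no member, since each has 1 feature.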
